A study of Rattus norvegicus with 44 samples.

Results

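The genes described here encode the machinery that stores neurotransmitter in synaptic vesicles, releases it and takes the vesicle membrane back. They were chosen by name, as a list of 46 symbols, and 45 of them had a row in both the CA1 and the DG table and passed the filter on low values (6 or more libraries of the region at 10 or above). The tables held 20003 genes for CA1 and 20050 for DG, of which 14915 and 14904 passed that filter. Sv2b was not analysed here. All rats were male and received 7 weekly intraperitoneal injections, and the brains were collected 48 hours later. The young LPS rats (n = 8) were 5 to 7 months old and received lipopolysaccharide at 1 mg per kg, the aged vehicle rats (n = 6) were 14 to 16 months old and received saline, and the young vehicle rats (n = 8) were 5 to 7 months old and received saline. From each rat 1 hippocampus was divided into CA1 and the dentate gyrus (DG), giving 44 polyA RNA-seq libraries. Lipopolysaccharide is a bacterial cell wall component that provokes inflammation in the periphery, and the design sets its effect, the effect of age, and their difference side by side.

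In a nerve terminal, transmitter transporters fill the vesicle, active zone proteins hold it near calcium channels, and SNARE proteins on the vesicle and the plasma membrane zip together to fuse it. Synaptotagmins sense calcium and trigger the fusion, NSF and its SNAP adaptors pull the spent SNARE complexes apart, and dynamin, amphiphysin and synaptojanin retrieve the membrane by endocytosis. In the hippocampus the same machinery serves the glutamatergic outputs of CA1 pyramidal cells and dentate granule cells and the GABAergic terminals of interneurons. The bulk RNA measured here comes from the whole dissected piece, and in such samples fewer cells of a type and less RNA per cell cannot be told apart.

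Recovered reads numbered 12292346 to 18749663 in CA1 libraries and 12130182 to 23519791 in DG libraries. The labelled regions carried their markers. Wfs1, enriched in CA1 pyramidal cells, had a median of 1149 reads per 1000000 recovered reads (rpm) in CA1 and 259 in DG, and 7 of the 8 genes on that marker list were higher in CA1 in 22 of 22 rats, with Zfpm2 the exception (1 of 22). Prox1, the granule cell transcription factor, had a median of 69.0 rpm in CA1 and 171 in DG and was higher in CA1 in 0 of 22 rats. The CA1 pieces differed in their dentate signal: C1ql2, a granule cell gene, ranged from 3.39 to 185 rpm across CA1 libraries, and the mean log2 level of the 5 dentate markers tested (of 8 listed, with Lct and Tdo2 at a median of 0.0759 and 0 rpm in CA1) lay between -2.16 and 1.08 in LPS rats, -0.89 and 0.30 in aged rats and -0.02 and 0.68 in young vehicle rats around the mean of all CA1 libraries. The DG pieces differed in their CA1 signal. There the mean log2 level of the 8 CA1 pyramidal markers ran from -1.54 to 0.86 (median 0.21) in LPS rats. It ran from -1.35 to 1.07 (median 0.79) in aged rats and from -1.47 to 1.24 (median -0.28) in young vehicle rats. The median of the 12 interneuron markers in DG was 0.09 in LPS, 0.08 in aged and -0.17 in young vehicle rats. The part of interneuron content in the DG changes was not tested. The CA1 library of aged rat 2532 stood apart. It had the fewest recovered reads of the CA1 libraries (12292346). It was the highest or the lowest of the 22 CA1 libraries for 28 of the 45 release genes (12 highest and 16 lowest), while the next library was so for 13. These counts lack the share over all genes, so they do not set release genes apart from other genes. In the CA1 library of rat 2532 the mean log2 level of the 8 CA1 pyramidal markers was 0.37, the highest of 22, that of the 12 interneuron markers was -0.36, the lowest of 22, that of the 7 oligodendrocyte precursor markers was -0.71, also the lowest of 22, and that of the 10 neuron markers was 0.06. The called results that involve aged rats in CA1, and the members closest to them, are therefore given with and without it.

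Between the regions the members' median log2 differences spanned -1.20 to 1.70. Levels across the regions are given in rpm without a test, because each regional table was normalized on its own. By the median of the within-rat log2 difference, 13 members were higher in CA1 and 32 were lower, with a member median of -0.26 against -0.01 over the 14737 genes compared. In at least 20 of 22 rats 2 members were higher in CA1, and 14 were higher in DG, a pattern that held for 5.16% and 6.03% of all genes. No member had ranges that did not overlap between the regions, against 0.516% of all genes. The 10 oligodendrocyte markers summed to group medians of 132590 to 159594 normalized counts in CA1 and 73292 to 78701 in DG. For the 10 neuron markers these were 66880 to 68683 in CA1 and 72043 to 76034 in DG. The sums share the limit of separate normalization, and the part of cell content in the region differences was not tested.

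Among the vesicular transporters, which set what a vesicle carries, those for VGLUT2 and for GABA lay on the CA1 side. Slc17a6, the vesicular glutamate transporter VGLUT2, had 10.5 to 49.3 (median 23.1) in CA1 and 2.55 to 37.3 (median 6.28) in DG rpm, a median within-rat log2 difference of 1.70 that was positive in 20 of 22 rats. Slc32a1, which loads GABA and glycine, had 36.2 to 109 (median 75.4) in CA1 and 38.8 to 75.1 (median 56.5) in DG rpm and a median log2 difference of 0.48, also positive in 20 rats. Slc17a7, encoding VGLUT1 of the principal cells, had 1522 to 2775 (median 2039.8) in CA1 and 1660.2 to 3111 (median 2583) in DG rpm and lay on the DG side with a median log2 difference of -0.49. VGLUT2 ranges were wide in DG: the DG libraries with the highest normalized Slc17a6 counts in their groups came from LPS rat 2408 (368), aged rat 2412 (282) and vehicle rat 2410 (584), and their CA1 pyramidal marker means in DG ranked 5, 6 and 1 from the highest of 22. The DG libraries of aged rats 2415 and 2532 ranked 2 and 4 on the same markers, but the next aged Slc17a6 value after rat 2412 was 131. The part of dissection in those values was not tested.

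Calcium sensors and complexins lay on both sides. Syt2, a fast calcium sensor of many inhibitory terminals, had 3.66 to 33.0 (median 13.7) in CA1 and 3.92 to 29.7 (median 7.11) in DG rpm and was higher in CA1 in 17 of 22 rats. Syt7, a high-affinity sensor linked to asynchronous release, had 65.3 to 203 (median 155) in CA1 and 164 to 304 (median 243) in DG rpm and was higher in DG in 22 of 22 rats. Cplx2, a complexin that clamps and promotes fusion, had 436 to 1113 (median 707) in CA1 and 935 to 1817 (median 1403) in DG rpm and was also higher in DG in 22 of 22 rats, whereas its relative Cplx1 had a median log2 difference of 0.33 towards CA1. The main fast sensor Syt1 (-0.03), Syt5 (-0.07) and Syt11 (0.01) lay near 0 on this log2 scale, and Syt4 had a median difference of -0.33.

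The difference farthest towards DG was in the active zone. Unc13c, a Munc13 priming factor, had 7.16 to 30.5 (median 16.5) in CA1 and 24.1 to 58.4 (median 42.4) in DG rpm, a median log2 difference of -1.20 that was negative in 22 of 22 rats. The scaffold genes Erc2 (-0.83), Erc1 (-0.71), Bsn (-0.62) and Rims1 (-0.58) followed on the DG side, with Pclo at -0.34 and Unc13a at -0.27. Rims3 (0.27) and Unc13b (0.23) had positive medians, and Rims2 lay at -0.05. Among the SNARE genes and their recycling factors, Napa, encoding alpha-SNAP, had 132 to 451 (median 279) in CA1 and 396 to 570.0 (median 464) in DG rpm and was higher in DG in 22 of 22 rats. Stx1a (-0.53), Napb (-0.50), Snap25 (-0.40) and Nsf (-0.26) had negative medians, and Vamp1 (-0.06) and Vamp2 (0.04) lay near 0.

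All synapsins, which tether vesicles to the cytoskeleton, lay on the DG side, with Syn2 at -0.83, Syn1 at -0.55 and Syn3 at -0.19. Among the vesicle membrane proteins, Synpr, a synaptophysin relative abundant in mossy fibres, had 33.0 to 57.7 (median 47.7) in CA1 and 42.2 to 74.6 (median 64.8) in DG rpm and was higher in DG in 21 of 22 rats. Syngr1 (-0.34), Syp (-0.26) and Sv2c (-0.14) had negative medians, and Sypl1 (0.45), Sv2a (0.14) and Syngr3 (0.05) positive ones. Of the Rab3 group, whose small GTPases mark docked vesicles, Rab3b (0.41) and Rab3c (0.18) had positive medians, Rab3a was at -0.02 and its effector Rph3a at -0.34. The endocytosis genes Dnm1 (-0.44), Synj1 (-0.21) and Amph (-0.20) all had negative medians.

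**Figure D1:**
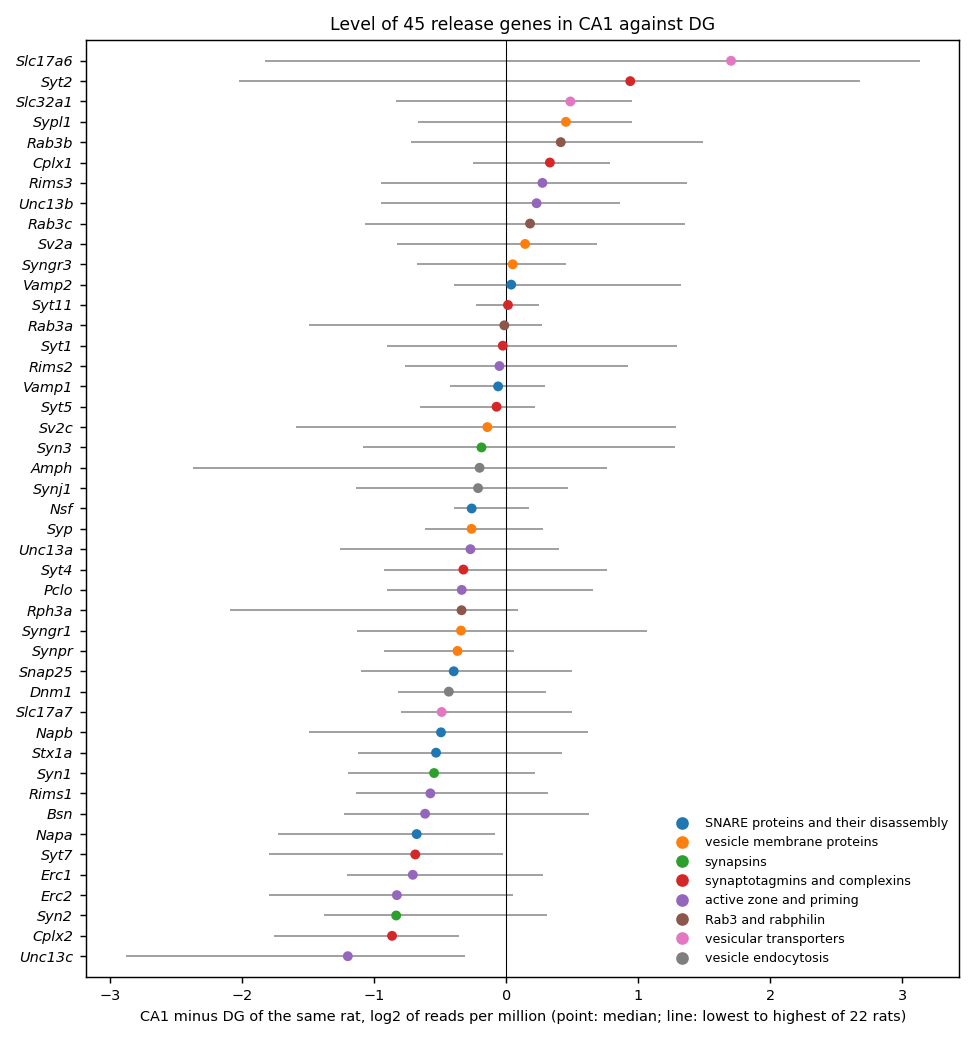
Within-rat difference between CA1 and DG for 45 release genes, as log2 of rpm on the horizontal axis. Points are medians and lines run from the lowest to the highest of 22 rats, coloured by role; Slc17a6 lies farthest towards CA1 at 1.70 and Unc13c farthest towards DG at -1.20, and no test was made.

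Repeated LPS left the release genes of young rats without a change that passed the test in either region. In CA1, young LPS against young vehicle rats, 0 of 45 members had a limma adjusted p below 0.05, as did 0% of all 14915 genes, and 3 members had an unadjusted p below 0.05 (6.67%), beside a background of 6.87%. On recovered reads edgeR and DESeq2 also called 0 members. The members' log2 changes ran from -0.38 to 0.48 with a median of 0.03, against 0.01 over all genes, and 25 members were higher and 20 lower. The 95% interval of the log2 change lay within ±1 for 44 of 45 members and within ±0.5 for 29, and the member beyond ±1 was Syt2 (upper bound 1.14).

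Erc2, the active zone scaffold also called CAST, had the smallest p in CA1. Its normalized counts were 256 to 586 (median 381) in LPS rats, against 353 to 690.0 (median 482) in young vehicle rats. Only 1 of 8 LPS libraries exceeded the vehicle median, though the ranges overlapped, and the log2 change was -0.38 ± 0.16 (SE; limma adjusted p = 0.654, shared by all members named next). Slc32a1, marking GABA vesicles, was at 1149 to 1883 (median 1355) in LPS rats, against 987 to 1371 (median 1153) in young vehicle rats, and 7 of 8 LPS libraries exceeded the vehicle median, with a log2 change of 0.28 ± 0.13. Stx1a, the plasma membrane SNARE syntaxin-1A, was at 1362 to 2249.7 (median 1658) in LPS rats, against 1180.4 to 2006 (median 1333) in young vehicle rats, and 8 of 8 LPS libraries exceeded the vehicle median, with a log2 change of 0.27 ± 0.12. None of these differences passed the test, and within the series of animal numbers the Stx1a difference was -0.10 (3 LPS against 1 vehicle rat numbered from 24), 0.34 (4 against 4 numbered from 25) and -0.01 (1 against 3 numbered from 27). In the same series order the Erc2 difference was -0.92, -0.20 and -0.52, and the Slc32a1 difference was 0.64, 0.11 and 0.12.

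The next members by p in CA1 were the SNAP adaptor Napb (log2 change -0.26 ± 0.13), the scaffold Erc1 (-0.25 ± 0.13), Rab3b (0.29 ± 0.16), Cplx1 (0.20 ± 0.12) and Syt5 (0.19 ± 0.11). By role, 7 of 10 active zone genes were lower in LPS rats, with a median log2 change of -0.12, and 3 of 3 vesicular transporters were higher, with a median of 0.28. The SNARE group had 4 of 7 higher (median 0.05), the vesicle membrane proteins 5 of 7 (0.08), the synapsins 1 of 3 (-0.01), the synaptotagmins and complexins 4 of 8 (-0.02), the Rab3 group 3 of 4 (0.09) and the endocytosis genes 2 of 3 (0.10). These are descriptions of genes that shared their libraries, and no role held a called member.

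In DG, young LPS against young vehicle rats, 0 of 45 members passed the limma test, against 0.0134% of all 14904 genes, and 1 member (2.22%) had an unadjusted p below 0.05, beside a background of 7.53%. Both edgeR and DESeq2 called 0 members there. The member with an unadjusted p below 0.05 in the limma fit was Unc13c. Its normalized counts in DG were 411 to 868 (median 592) in LPS rats, against 499 to 1016 (median 724) in young vehicle rats, and 1 of 8 LPS libraries exceeded the vehicle median. The groups overlapped, and the log2 change was -0.29 ± 0.14 (limma adjusted p = 0.659). Smaller still were the changes of Rab3c (0.28 ± 0.14, limma adjusted p = 0.663), Unc13b (0.22 ± 0.11, 0.671), Synj1 (0.16 ± 0.08, 0.677), Erc2 (0.20 ± 0.10, 0.685), Rims2 (0.13 ± 0.07, 0.693), Napb (0.18 ± 0.12, 0.774) and Cplx1 (0.16 ± 0.11, 0.779). The 95% interval lay within ±0.5 on the log2 scale for 41 of 45 members, a narrower picture than in CA1. In the DG library of LPS rat 2543, 19 members were the highest of all 22 DG libraries, a count without the share over all genes beside it. Without that library the log2 changes of Erc2 and Napb were 0.12 and 0.11. Other single libraries moved 3 more: without LPS rat 2547 Cplx1 was at 0.11, without vehicle rat 2571 Rab3c was at 0.18 and without vehicle rat 2572 Unc13b was at 0.13. With library weights Synj1 was at 0.06 and Rims2 at 0.03.

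**Figure D2:**
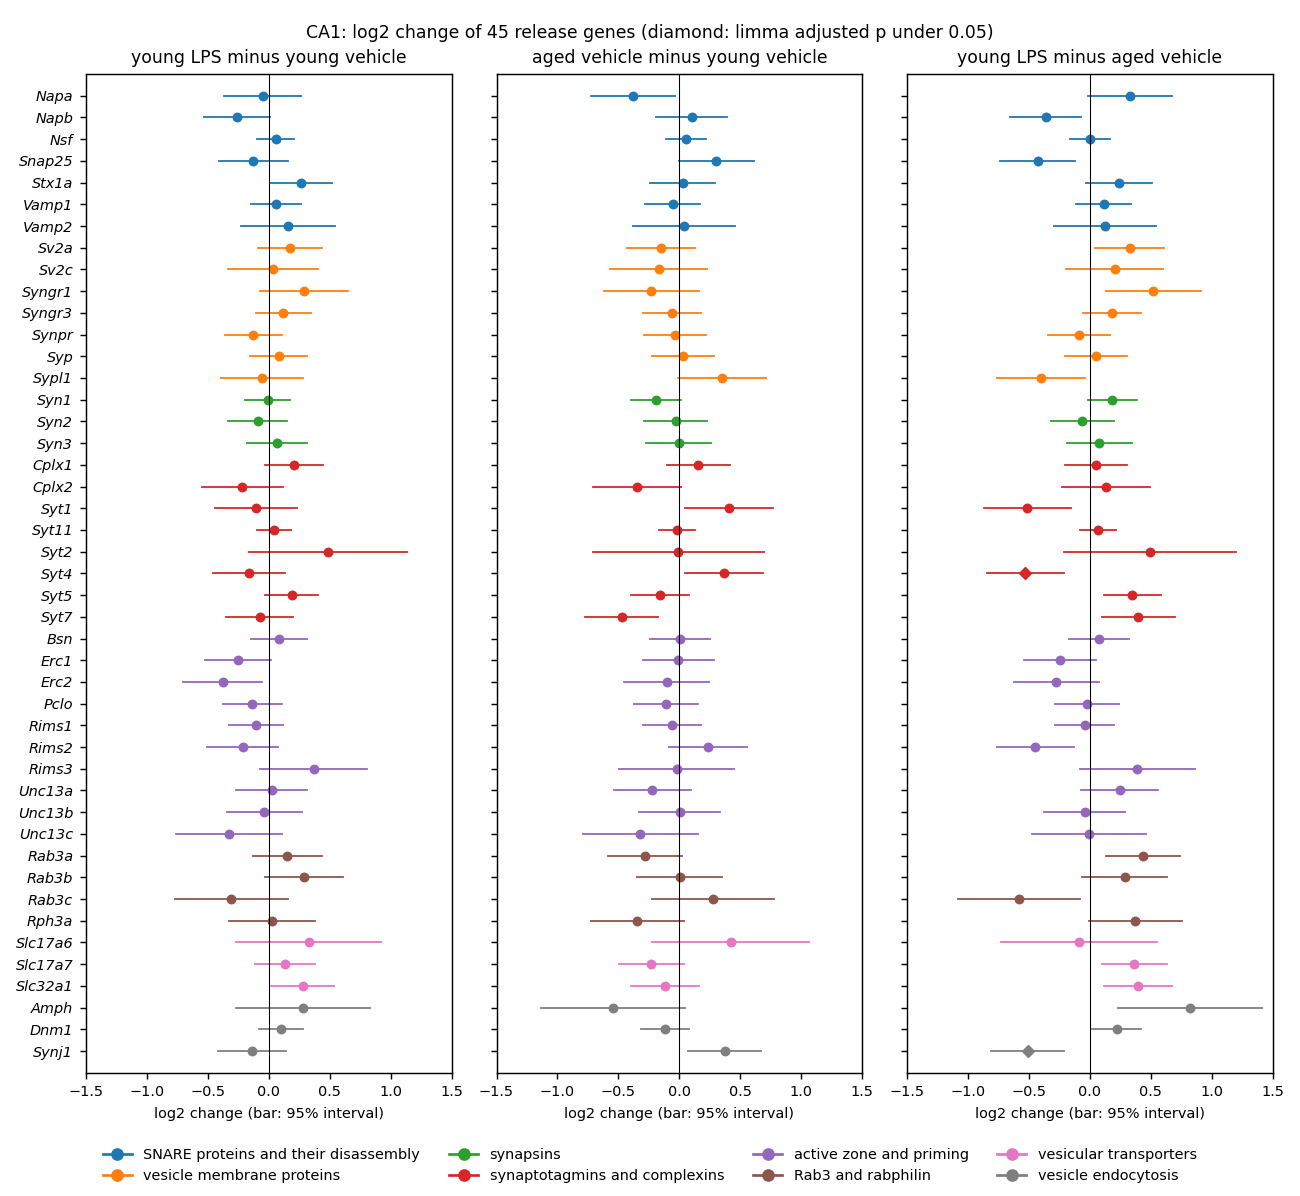
CA1 log2 changes (horizontal axes) of 45 release genes in the 3 comparisons, with 95% intervals from limma, coloured by role. Diamonds mark limma adjusted p below 0.05: only Synj1 and Syt4 in young LPS minus aged vehicle.

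Age alone also gave no member that passed the test. In CA1, aged against young vehicle rats, 0 of 45 members had a limma adjusted p below 0.05, against 0.0134% of all genes. Without a correction 5 members (11.1%) had p below 0.05, beside a background of 12.6%: 3 higher in aged rats, where the background was 6.82%, and 2 lower, where it was 5.8%. Both edgeR and DESeq2 called 0 members. The member median was -0.03 on the log2 scale, against 0.0027 over all genes, with 17 members higher and 28 lower.

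Syt7 had the smallest p. Its CA1 normalized counts were 1171 to 2348 (median 2032) in aged rats, against 2029 to 3336 (median 2684) in young vehicle rats. None of the 6 aged libraries exceeded the vehicle median, though the ranges overlapped, and the log2 change was -0.47 ± 0.14 (limma adjusted p = 0.393, shared by all members named next). The difference was -0.39 among rats numbered from 24 (4 aged against 1) and -0.60 among those numbered from 25 (2 against 4), and without rat 2532 the log2 change was -0.33. With library weights, which give outlying libraries less influence, Syt7 was the single member called (limma adjusted p = 0.0207). The share of all genes called with those weights is not given here. Syt7 passed the threshold in 1 of 35 alternatives, and without rat 2532 its limma adjusted p was 0.763. Napa, encoding alpha-SNAP, was at 2363 to 5225 (median 3916) in aged rats, against 3326 to 5497 (median 5057) in young vehicle rats, and the log2 change was -0.38 ± 0.17 and -0.25 without rat 2532.

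Of the 17 members that lay higher in aged CA1, 10 had changes closer to 0 without rat 2532, and 4 of the 17 had changes below 0 without it. These counts lack the share over the lower members and over all genes. Synj1, whose phosphatase strips the coat from endocytosed vesicles, was at 6454 to 13642 (median 7861) in aged rats, against 5088 to 8563 (median 6576) in young vehicle rats, and the log2 change was 0.37 ± 0.15, and 0.23 without rat 2532. The same held for Syt4 (0.37 ± 0.15, and 0.19 without that rat), Syt1 (0.41 ± 0.17, and 0.16) and Snap25 (0.30 ± 0.15, and 0.15). Within rats numbered from 24, which do not include 2532, the aged minus vehicle differences of Synj1, Syt4 and Syt1 were -0.21, -0.17 and -0.17, with 1 vehicle rat, and within those numbered from 25 they were 0.84, 0.82 and 1.03. Cplx2 had a log2 change of -0.35 ± 0.17 (-0.42 without rat 2532) and Sypl1, a synaptophysin-like vesicle protein, one of 0.35 ± 0.18 (0.25). With a score of CA1 over dentate markers as a covariate, Cplx2 was at -0.19, Napa at -0.16, Snap25 at 0.195 and Sypl1 at 0.21.

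In DG, aged against young vehicle rats, 0 of 45 members passed the limma test, against 0.0134% of all genes, and 0 had an unadjusted p below 0.05, beside a background of 2.99%. Both edgeR and DESeq2 called 0 members. Slc32a1 came closest, with normalized counts of 824 to 1173 (median 1088) in aged rats, against 655 to 1174 (median 859) in young vehicle rats. Its log2 change was 0.24 ± 0.12 (limma adjusted p = 1.00, as for all members named next). In 5 of 6 aged libraries it exceeded the vehicle median. Vamp2, the vesicle SNARE synaptobrevin-2, was at 11517 to 15129 (median 13889) in aged rats, against 13209 to 22389 (median 14415) in young vehicle rats, and the log2 change was -0.21 ± 0.11. The remaining members among the 8 smallest p were Napa (-0.12 ± 0.09), Synj1 (0.13 ± 0.09), Napb (0.18 ± 0.13), Erc2 (-0.15 ± 0.11), Vamp1 (0.12 ± 0.10) and Syngr3 (0.14 ± 0.12). Single libraries moved several of these: Vamp2 was at -0.13 without vehicle rat 2572, Napa at -0.08 without vehicle rat 2571, and Synj1 and Syngr3 at 0.08 and 0.07 without vehicle rat 2526. Napb was at 0.12 without aged rat 2412 and 0.27 without aged rat 2415. For 39 of 45 members the 95% interval lay within ±0.5, and the widest bounds were those of Slc17a6 (-1.23) and Syt2 (1.10).

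**Figure D3:**
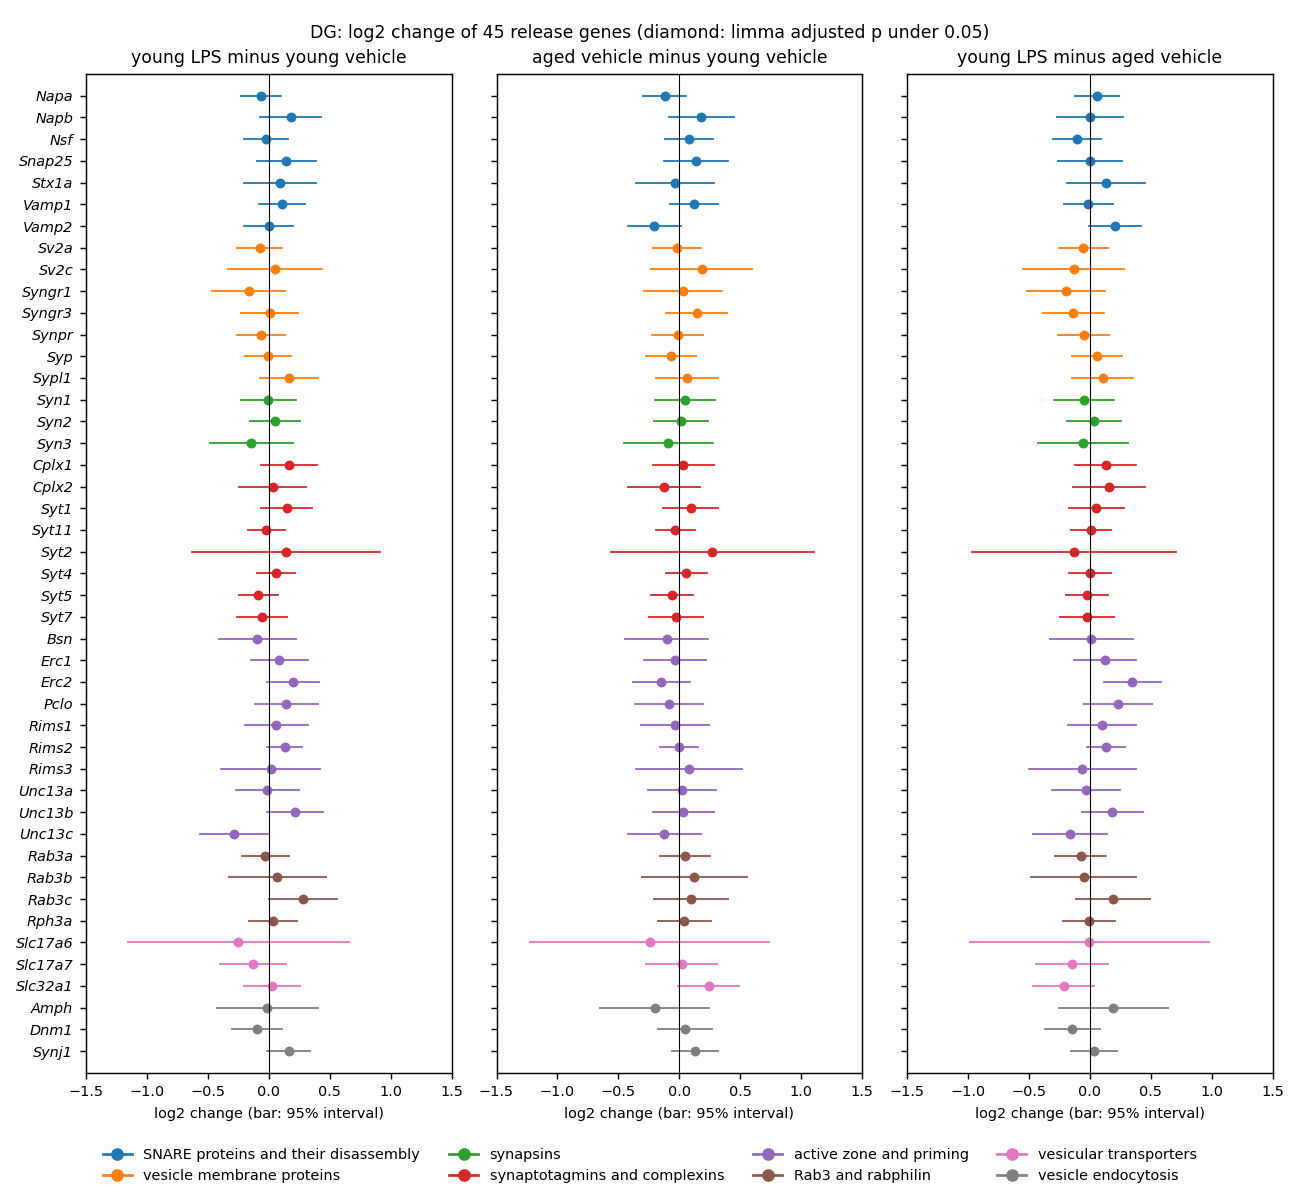
DG log2 changes (horizontal axes) of 45 release genes in the 3 comparisons, with 95% intervals from limma, coloured by role. No member has an adjusted p below 0.05, and the widest intervals are those of Slc17a6 and Syt2.

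Among the 6 comparisons within a region, called members appeared only where young LPS rats were set against aged vehicle rats in CA1, a comparison in which age and treatment differ together. There 2 of 45 members had a limma adjusted p below 0.05 (4.44%), against 8.73% of all genes. Both were lower in LPS rats, where the background was 5.24%, and 0 members were called higher, where it was 3.49%. Without a correction 17 members (37.8%) had p below 0.05, beside a background of 35.8%: 9 higher, against 17.3% of all genes, and 8 lower, against 18.5%. In this fit the members' share was near or below that of all genes at each threshold. On recovered reads edgeR called 5 members (11.1%, against 14.4% of all genes) and DESeq2 14 (31.1%, against 22.8%), so that the members' share lay above that of all genes in DESeq2.

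The called members were Synj1 and Syt4. In CA1 the normalized counts of Synj1 were 4410.4 to 7756 (median 5904) in LPS rats, 6454 to 13642 (median 7861) in aged rats and 5088 to 8563 (median 6576) in young vehicle rats. None of the 8 LPS libraries reached the aged median, but the ranges overlapped, and Synj1 fell by 0.51 ± 0.15 on the log2 scale (SE; limma adjusted p = 0.0490). Syt4, an unusual synaptotagmin induced by neuronal activity and carried on dense-core vesicles, was at 1381 to 2421 (median 2089.7) in LPS rats, 2244 to 5378 (median 2626) in aged rats and 1761 to 2817 (median 2245) in young vehicle rats. Again 0 of 8 LPS libraries exceeded the aged median, and Syt4 fell by 0.53 ± 0.15 on the log2 scale (limma adjusted p = 0.0490). The highest aged value of both genes came from rat 2532, with 13642 for Synj1 and 5378 for Syt4, against 8294 and 2717 in the next aged library.

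Without rat 2532 the log2 changes were -0.37 for Synj1 and -0.35 for Syt4 (limma adjusted p = 0.122 for both), 0 members were called, and the number of genes called in the whole table was 0, against 1302 with that rat. Members with an unadjusted p below 0.05 then numbered 15 (33.3%, against 24.7% of all genes). Leaving out any of 15 of the 22 CA1 libraries, rat 2532 among them, brought the number of members called to 0. Among rats numbered from 24 (3 LPS against 4 aged) the difference was -0.28 for Synj1 and -0.27 for Syt4, and among rats numbered from 25 (4 against 2, with rat 2532) it was -0.92 and -1.004. The series numbered from 27 held no aged rat. With a score of CA1 over dentate markers as a covariate, the changes were -0.49 for Synj1 and -0.51 for Syt4 (limma adjusted p = 0.0504 for both), and 0 members were called. For these counts of 0, apart from the one without rat 2532, the share of all genes called is not given here.

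The promoter windows of these genes are shown because Synj1, Syt4 and Syt1 lay together on the lower side in LPS rats and Rab3a on the higher side. RefSeq windows of build GRCr8 (250 bases before and 50 after the gene start, written 5′ to 3′ on the gene's strand) were held for 38 members; the count files use build rn6. The windows lie on the minus strand at chr11:43755477-43755776 for Synj1, chr18:23320814-23321113 for Syt4, chr7:46244164-46244463 for Syt1 and chr16:18722224-18722523 for Rab3a. Capitals mark the GC box GGGCGG, read on both strands.
Synj1: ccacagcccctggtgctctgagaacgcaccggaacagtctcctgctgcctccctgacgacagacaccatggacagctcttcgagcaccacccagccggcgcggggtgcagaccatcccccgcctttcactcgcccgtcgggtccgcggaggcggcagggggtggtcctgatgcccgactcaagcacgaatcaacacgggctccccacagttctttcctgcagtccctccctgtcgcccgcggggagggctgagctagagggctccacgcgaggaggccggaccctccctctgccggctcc
Syt4: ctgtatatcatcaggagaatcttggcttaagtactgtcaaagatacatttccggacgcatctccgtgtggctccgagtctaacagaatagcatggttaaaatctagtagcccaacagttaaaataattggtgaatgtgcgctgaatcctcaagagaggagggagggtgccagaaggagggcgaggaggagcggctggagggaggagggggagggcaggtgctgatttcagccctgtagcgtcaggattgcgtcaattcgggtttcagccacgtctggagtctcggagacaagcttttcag
Syt1: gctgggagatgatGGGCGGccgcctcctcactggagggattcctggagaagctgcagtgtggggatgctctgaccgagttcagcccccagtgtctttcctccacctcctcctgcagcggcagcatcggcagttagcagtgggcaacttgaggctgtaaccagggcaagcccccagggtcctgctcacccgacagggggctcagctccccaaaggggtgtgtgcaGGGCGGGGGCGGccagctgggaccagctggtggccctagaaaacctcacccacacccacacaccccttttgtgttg
Rab3a: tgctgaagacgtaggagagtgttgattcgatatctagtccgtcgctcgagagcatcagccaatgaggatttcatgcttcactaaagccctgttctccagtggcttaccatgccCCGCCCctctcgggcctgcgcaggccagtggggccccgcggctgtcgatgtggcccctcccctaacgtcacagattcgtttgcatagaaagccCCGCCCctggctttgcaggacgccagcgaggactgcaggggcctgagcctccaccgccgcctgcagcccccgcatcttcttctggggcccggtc
The windows of Synj1 and Syt4 held none of the 5 motifs searched, which were the GC box, the CRE TGACGTCA, the TATA box TATAAA, the NRF1 core GCGCATGC and the REST site fragment TTCAGCAC, all read on both strands. Syt1 had 3 GC boxes, of which 2 follow each other directly, and Rab3a had 2. Over the members, 27 of 38 windows (71.1%) held a GC box, against 34.9% of 27457 windows, and 0 held a TATA box, against 14.3%. The CRE was found in 3 members (Vamp1, Napa and Syn1), or 7.89%, against 1.91% of all windows, the NRF1 core in 2 (5.26%, against 2.66%) and the REST site fragment in 1 (2.63%, against 1.05%). The median share of G and C was 64.5% in members and 52.3% in all windows, and a match is only a string in this window. The 27457 windows include genes not tested here, since 10398 genes tested in CA1 had a window. In CA1, young LPS minus aged vehicle, the Spearman correlation of window G and C with the log2 change was -0.05 over 37 members. Over the 10398 genes it was 0.08. The part of these motifs in the changes was not tested.

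The other members near the threshold lay in both directions in CA1. With library weights Syt1 (limma adjusted p = 0.0227), Rims2 (0.0165), Snap25 (0.0229), Rab3a (0.0201) and Syt5 (0.0119) passed the test, and 13 members were called (28.9%, against 23.4% of all genes). With the number series as a covariate 11 were called (24.4%, against 19.5%), among them Syt1 (0.0390), Rims2 (0.0393), Rab3a (0.0341), Syt5 (0.0350) and Slc32a1 (0.0348). Syt1, the main calcium sensor for synchronous release, was at 14425 to 20374 (median 17815) in LPS rats, 19441 to 58088 (median 21255) in aged rats and 15364 to 23215 (median 19075) in young vehicle rats, with 0 of 8 LPS libraries above the aged median. Its log2 change was -0.51 ± 0.17 (limma adjusted p = 0.0563) and -0.27 without rat 2532, which alone held 58088 counts against 22980 in the next aged library. Snap25, the palmitoylated plasma membrane SNARE, was at 12052 to 21917 (median 14389) in LPS rats, 17421 to 34784 (median 18066) in aged rats and 13862 to 22094 (median 16229) in young vehicle rats. In 6 of 8 LPS libraries it lay below the aged range, 2 of 8 exceeded the aged median, and the log2 change was -0.43 ± 0.15 (limma adjusted p = 0.0582; -0.27 without rat 2532). Rims2, an active zone scaffold that binds Rab3 and calcium channels, was at 1111 to 1666 (median 1248) in LPS rats, 1314 to 3473 (median 1612) in aged rats and 1193 to 1734 (median 1504) in young vehicle rats, and the log2 change was -0.45 ± 0.15 (limma adjusted p = 0.0563; -0.25 without rat 2532).

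On the higher side in LPS rats, Syt5, a vesicle synaptotagmin, was at 2649.8 to 3852 (median 3208) in LPS rats, 2005 to 3317 (median 2461) in aged rats and 2301 to 3397 (median 2756) in young vehicle rats, and 8 of 8 LPS libraries exceeded the aged median. Its log2 change was 0.35 ± 0.11 (limma adjusted p = 0.0533; 0.29 without rat 2532). Rab3a, the main vesicle GTPase, was at 10268 to 14978 (median 12742) in LPS rats, 4809 to 12535 (median 10327) in aged rats and 9872 to 12951 (median 11172) in young vehicle rats, with 7 of 8 LPS libraries above the aged median. The log2 change of Rab3a was 0.43 ± 0.15 (limma adjusted p = 0.0563; 0.24 without rat 2532, whose 4809 counts were the lowest). Slc32a1 was at 1149 to 1883 (median 1355) in LPS rats, 649 to 1216 (median 1158) in aged rats and 987 to 1371 (median 1153) in young vehicle rats, and 7 of 8 LPS libraries exceeded the aged median, with a log2 change of 0.39 ± 0.14 (limma adjusted p = 0.0578; 0.25 without rat 2532). Its 649 counts in rat 2532 lay beside the lowest interneuron marker mean of the CA1 libraries, and the part of interneuron content was not tested.

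**Figure D4:**
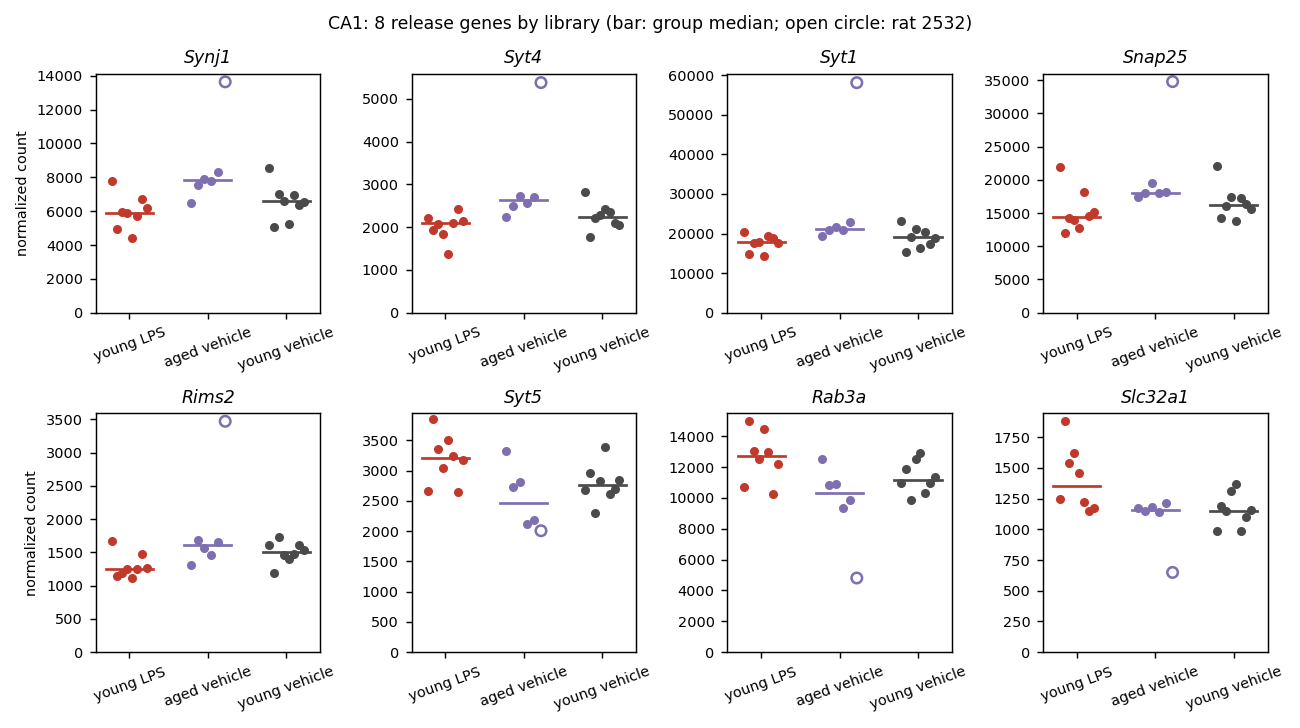
Normalized counts (vertical axes) of 8 release genes in each CA1 library of young LPS, aged vehicle and young vehicle rats; bars are group medians and the open circle is aged rat 2532. That rat holds the highest Synj1, Syt4, Syt1, Snap25 and Rims2 and the lowest Syt5, Rab3a and Slc32a1 of all 22 libraries.

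In number-series terms the differences kept their sign: among rats numbered from 24 they were -0.25 for Syt1, -0.23 for Snap25, -0.19 for Rims2, 0.26 for Syt5, 0.24 for Rab3a and 0.41 for Slc32a1. Among those numbered from 25, with rat 2532, they were -1.06, -0.77, -0.92, 0.56, 0.86 and 0.61 in the same order. Amph, which bends membrane for endocytosis, had the highest log2 change of the members, 0.82 ± 0.29 (limma adjusted p = 0.0593), with 513 to 1409 (median 682) in LPS rats, against 141 to 667 (median 551) in aged rats. Its lowest aged value, 141, again came from rat 2532, the next aged library held 506, and without that rat the log2 change of Amph was 0.49 (limma adjusted p = 0.175). Rab3c had the lowest log2 change, -0.58 ± 0.24 (limma adjusted p = 0.0938; -0.37 without rat 2532). Both were named after their values were seen. Roles were mixed: 3 of 10 active zone genes were higher in LPS rats, as were 5 of 7 vesicle membrane genes, 6 of 8 synaptotagmins and complexins, 4 of 7 SNARE genes, 3 of 4 of the Rab3 group, 2 of 3 synapsins, 2 of 3 transporters and 2 of 3 endocytosis genes.

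In DG, young LPS against aged vehicle rats, 0 of 45 members passed the limma test, against 0.0134% of all genes, and 1 (2.22%) had an unadjusted p below 0.05, beside a background of 9.1%. Both edgeR and DESeq2 called 0 members. The member with an unadjusted p below 0.05 in the limma fit was Erc2. Its normalized counts were 688 to 1303 (median 893) in LPS rats, against 629.7 to 800.0 (median 718) in aged rats. In 7 of 8 LPS libraries it exceeded the aged median, the ranges overlapped, and the log2 change was 0.35 ± 0.11 (limma adjusted p = 0.336). Next by p came Vamp2 (0.20 ± 0.11, limma adjusted p = 0.573), Slc32a1 (-0.22 ± 0.12, 0.615), Rims2 (0.13 ± 0.08, 0.628), Pclo (0.23 ± 0.14, 0.632), Unc13b (0.18 ± 0.12, 0.685), Dnm1 (-0.14 ± 0.11, 0.733) and Rab3c (0.19 ± 0.15, 0.743). Without LPS rat 2408 Dnm1 was at -0.08, and without LPS rat 2573 Slc32a1 was at -0.14. Synj1 and Syt4, called in CA1, had log2 changes of 0.04 ± 0.09 and -0.00037 ± 0.08 in DG.

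Whether the regions responded differently was tested on the difference between CA1 and DG of the same rat, over 14637 genes. For young LPS against aged vehicle, 1 of 45 members (2.22%) had a limma adjusted p below 0.05, against 8.98% of all genes, and 15 (33.3%) had an unadjusted p below 0.05, beside 32.6%. The called member was Rims2. Its log2 change was -0.45 in CA1 and 0.13 in DG, a difference of -0.58 ± 0.17 (limma adjusted p = 0.0421), and without rat 2532 the difference was -0.40 (limma adjusted p = 0.119). In DG the Rims2 counts were 1463 to 1992 (median 1671) in LPS rats, against 1436 to 1672 (median 1550.3) in aged rats, where the groups overlapped widely. The next members, none of which passed the test, were Rab3a (0.51 ± 0.16, limma adjusted p = 0.0512), Slc32a1 (0.61 ± 0.20, 0.0531), Syt5 (0.37 ± 0.12, 0.0536), Syt4 (-0.53 ± 0.18, 0.0629), Rab3c (-0.77 ± 0.27, 0.0639), Synj1 (-0.55 ± 0.19, 0.0647) and Syngr1 (0.71 ± 0.26, 0.0733). Without rat 2532 these differences were 0.32 for Rab3a, 0.47 for Slc32a1, 0.33 for Syt5, -0.35 for Syt4, -0.56 for Rab3c, -0.44 for Synj1 and 0.64 for Syngr1. Without rat 2532 the number of genes with such a difference in the whole table was 1, against 1315.

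**Figure D5:**
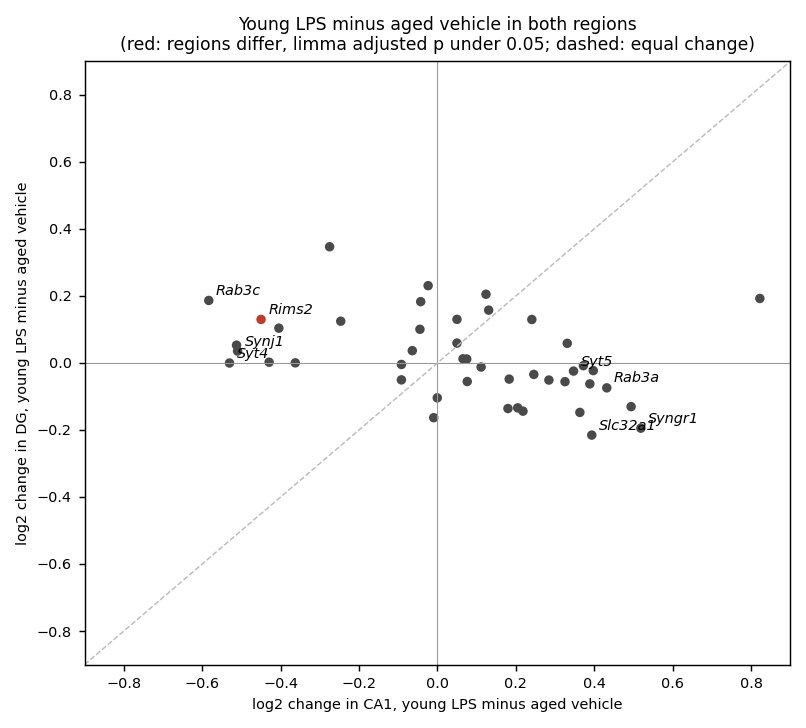
Log2 change of 45 release genes, young LPS minus aged vehicle, in CA1 (horizontal axis) against DG (vertical axis); the dashed line marks equal change and the red point, Rims2, is the member whose regions differed (limma adjusted p = 0.0421). CA1 changes run from -0.58 to 0.82 and DG changes from -0.22 to 0.35.

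For young LPS against young vehicle, 0 of 45 members differed between the regions by the limma test, against 0.00683% of all genes, and 4 (8.89%) had an unadjusted p below 0.05, beside a background of 13%. Erc2 had the smallest p, with log2 changes of -0.38 in CA1 and 0.20 in DG and a difference of -0.58 ± 0.23 (limma adjusted p = 0.357). The others below 0.05 unadjusted were Syt5 (0.27 ± 0.11, limma adjusted p = 0.362), Rab3c (-0.59 ± 0.25, 0.372) and Rims2 (-0.34 ± 0.16, 0.375). Napb (-0.44 ± 0.21), Erc1 (-0.34 ± 0.18), Syngr1 (0.45 ± 0.24) and Synj1 (-0.30 ± 0.18) followed, with limma adjusted p between 0.387 and 0.440. The Erc1 difference was -0.21 without vehicle rat 2410, and that of Synj1 was -0.19 without LPS rat 2543. For aged against young vehicle, 0 members differed, as did 0% of all genes, and 1 (2.22%) had an unadjusted p below 0.05, beside 5.21%. It was Syt7, with log2 changes of -0.47 in CA1 and -0.03 in DG and a difference of -0.44 ± 0.19 (limma adjusted p = 0.735, as for the following). Rab3a (-0.33 ± 0.16), Slc32a1 (-0.36 ± 0.20), Syngr3 (-0.20 ± 0.12), Syt4 (0.31 ± 0.18), Rph3a (-0.39 ± 0.23), Vamp1 (-0.18 ± 0.12) and Syt1 (0.31 ± 0.22) came next. Without rat 2532 the differences were -0.32 for Syt7, -0.14 for Rab3a, -0.21 for Slc32a1, -0.13 for Syngr3, 0.13 for Syt4, -0.14 for Rph3a, -0.23 for Vamp1 and 0.10 for Syt1. That of Vamp1 was -0.11 without aged rat 2420.

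A wider list of 84 further release genes was read in the same fits, of which 81 were tested in CA1 and 80 in DG. In CA1, young LPS against aged vehicle, 3 of them rose (3.7%, against 3.49% of all genes) and 2 fell (2.47%, against 5.24%). At an unadjusted p below 0.05, 22 were higher (27.2%, against 17.3% of all genes) and 14 lower (17.3%, against 18.5%). Sncb, encoding beta-synuclein, rose by 0.59 ± 0.16 on the log2 scale, Prrt2, a SNARE regulator mutated in paroxysmal dyskinesia in humans, by 0.50 ± 0.14, and the liprin Ppfia4 by 0.47 ± 0.14. Cltc, the clathrin heavy chain, fell by 0.59 ± 0.17, and Picalm, a clathrin assembly protein, by 0.57 ± 0.18 (limma adjusted p = 0.0490 for each of these genes). Without rat 2532, 0 of all 14875 genes passed the test in this comparison, so the loss of these calls does not set these genes apart. Their log2 changes were then 0.43 for Sncb, 0.53 for Prrt2, 0.34 for Ppfia4, -0.40 for Cltc and -0.41 for Picalm. In the other 5 comparisons of a region 0 of these genes passed the limma test. For LPS against vehicle, 5 in CA1 (6.17%, against 6.87% of all genes) and 5 in DG (6.25%, against 7.53%) had an unadjusted p below 0.05. For aged against vehicle it was 12 in CA1 (14.8%, against 12.6%) and 0 in DG (against 2.99%), and for LPS against aged in DG it was 4 (5%, against 9.1%).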

How the data were processed

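RNA was measured in 44 libraries, CA1 and DG of 22 male rats, made with an Ion Total RNA-Seq kit per the labels' protocols. The submitters' processing notes name Partek, STAR, DESeq2 and build rn6, with no order or role. The authors deposited a table of normalized counts per region, a signal per gene that divides reads by a library factor. Dividing by the value of 1 read (0.818 to 1.46 in CA1, 0.659 to 1.32 in DG) gave whole reads within 0.1 for 99.7% of CA1 and 99.98% of DG values, and for all member rows, whose reads served edgeR, DESeq2 and rpm. The read totals set the precision. The labels give separate rats, so n counts animals.

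Members and lists were chosen with earlier results of these data known. Genes that reached 10 normalized counts in 6 or more of a region's libraries entered limma 3.58.1 (trend and robust, R 4.3.3) on log2(normalized count + 1), with all 3 groups in a fit, Benjamini-Hochberg adjustment over all genes and a threshold of 0.05. Fold changes are on that log2 scale, which understates changes of low genes. The difference between regions was fitted on CA1 minus DG of the same rat. The pairing comes from the labels, in which each rat gave 1 hippocampus. A rat's 2 libraries had a median correlation of deviations from group means of 0.0513, above 0.1 in 8 of 22 rats. In 1 of 22 rats the CA1 library correlated best with the DG library of the same rat, so the pairing rests on the labels. The alternatives were other pseudocounts and filters, TMM scaling, 2-group fits, library weights, covariates (number series of the rats, dissection score, neuron content score), each library left out, edgeR 4.0.16 and DESeq2 1.42.0. The scripts were tested on simulated data. Within-series values are differences of mean log2 values. In each comparison the called members and the 8 with the smallest p are named. Promoter windows come from RefSeq (GRCr8) and were matched by symbol for 38 members. Levels of different genes were not compared, since transcript lengths were not used here.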

Additional observations from a re-analysis of the deposited data

Results flagged for a closer look

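A gap test for the highest or lowest library of a group picked out 32 of 270 sets of member values (a gene in a group and region); chance picks out about 1 in 20 sets. The CA1 library of aged rat 2532 accounts for 15. In normalized counts it was the highest aged value for Snap25 (34784, next 19508), Syt1 (58088, next 22980), Syt4 (5378, next 2717), Rims2 (3473, next 1689), Synj1 (13642, next 8294), Vamp2 (37827, next 16580), Syp (13086, next 8346), Cplx1 (11355, next 7876), Erc1 (3492, next 1980.3) and Rab3c (1037, next 542). It was the lowest aged value for Amph (141, next 506), Slc32a1 (649, next 1140.0), Syt7 (1171, next 1923), Rims3 (54.0, next 136) and Syngr3 (709, next 1105).

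Elsewhere in CA1, young vehicle rat 2410 was highest for Pclo (7336), Snap25 (22094) and Syn2 (5885), vehicle rat 2571 for Sv2c (194) and LPS rat 2404 for Sv2c (219.6), while vehicle rat 2526 was lowest for Napa (3326). In DG, LPS rat 2408 was highest for Slc17a6 (368) and Syt2 (324), LPS rat 2543 for Rims3 (246) and LPS rat 2573 for Syt4 (3172). Among aged DG libraries, rat 2412 was highest for Slc17a6 (282), rat 2531 for Amph (833) and rat 2411 for Syn2 (7626). Among young vehicle DG libraries, rat 2410 was highest for Slc17a6 (584), Syt2 (464) and Cplx1 (8423), and rat 2526 for Sv2a (10859.9).

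Rims2 differed between the regions in young LPS minus aged vehicle, by -0.58 on the log2 scale (limma on within-rat differences).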

How the results depend on the processing

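The number of members called was 0 under every alternative run for LPS against vehicle in both regions, for the DG comparisons and for 2 of the region differences. For aged against vehicle in CA1 it was 0 except with library weights, where it was 1, a count without the share of all genes beside it. In CA1, young LPS against aged vehicle, the count of 2 became 0 with no filter, with only the 2 groups in the fit, with the dissection score and without rats 2526, 2572 and 2532 together, 5 with edgeR (11.1%, against 14.4% of all genes), 6 with a mean value of at least 50 (13.3%, against 15.5%), 11 with the number series (24.4%, against 19.5%), 13 with library weights (28.9%, against 23.4%) and 14 with DESeq2 (31.1%, against 22.8%). Leaving out a library gave 0 to 14: it was 0 without any of the LPS rats 2404, 2408, 2527, 2543 and 2717, the aged rats 2415, 2420, 2531 and 2532 or the vehicle rats 2410, 2526, 2571, 2722, 2728 and 2731, and it was 4 without 2547 (8.89%, against 12% of all genes), 9 without 2573 (20%, against 15.1%), 12 without 2403 (26.7%, against 17.7%) and 14 without 2411 (31.1%, against 22.8%). For the region difference of the same groups the count of 1 became 6 with a mean of at least 50 (13.3%, against 16.3% of all genes), 7 with the number series (15.6%, against 15.6%) and 5 with no replicate block, so unpairing the rats (11.1%, against 13.1%). Leaving out a rat gave 0 to 8 (17.8%, against 17%). It was 0 without LPS rats 2404, 2408, 2527, 2543 and 2573, aged rats 2415, 2420, 2531 and 2532 or vehicle rats 2722, 2728 and 2731. Counts of 0 are given here without the share of all genes called in the same setting. They therefore do not set members apart from other genes. The cause of the changes in these counts was not tested. Alternatives were read for the called members and the 8 with the smallest p in each comparison, and none of those changed direction. Within single number series, some with 1 rat in a group, several of them did. In CA1 these were Stx1a, Erc1 and Rab3b (LPS against vehicle) and Synj1, Syt4, Syt1 and Snap25 (aged against vehicle). In DG they were Unc13c, Erc2 and Cplx1 (LPS against vehicle), Slc32a1, Napa and Erc2 (aged against vehicle), and Slc32a1 and Dnm1 (LPS against aged). The log2 change of Synj1 in CA1, LPS minus aged, ranged from -0.58 to -0.37 over 35 alternatives (adjusted p 0.00749 to 0.122), that of Syt4 from -0.60 to -0.34 (0.00926 to 0.122), and the region difference of Rims2 from -0.65 to -0.40 over 26 alternatives (0.0258 to 0.119). Both adjusted p of the called members lie close to the threshold. Aged groups of 6 rats and 1 outlying library limit the precision.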
